A study of Homo sapiens with 4 samples.

Results

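The myogenic regulatory factor genes MYOD1, MYOG, MYF5 and MYF6 were examined in fusion-negative rhabdomyosarcoma cells, 4 of the 20033 protein-coding genes in the annotation. Members were taken by name, and every called peak that overlapped a gene body or its 50 kb on either side by at least 1 bp was assigned to it. This gave 47 of the 78084 peaks in the deposited lists. MYF5 and MYF6 lie side by side on chromosome 12, so their windows share the same peaks and the 4 genes form 3 loci.

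The data came from chromatin immunoprecipitation followed by sequencing (ChIP-seq) of RD, an established human cell line from a rhabdomyosarcoma, a tumor of the muscle lineage, without a PAX-FOXO1 fusion. The cells had received a vector with an shRNA against SKP2 (shSKP2, the knockdown) or a non-targeting shRNA (shSCR, the control). SKP2 is the substrate-recognition subunit of an SCF ubiquitin ligase. Formaldehyde-fixed chromatin was cut with micrococcal nuclease and precipitated for MYOD or for histone H3 acetylated at lysine 27 (H3K27ac), with Drosophila chromatin added as a spike-in. Both groups were grown in the same serum-containing medium, and the knockdown was a single shRNA in a single cell line. Each of the 4 libraries was the only one of its group, so the groups could not be tested against each other, the spread within a group is unknown, and the comparisons below carry no p-value. Intervals below cover counting error only.

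The 4 proteins are basic helix-loop-helix factors that pair with E proteins and bind the E-box, whose letters are CANNTG. MYOD1, which encodes MYOD, and MYF5 commit cells to the muscle lineage. MYOG, which encodes myogenin, acts at terminal differentiation, and MYF6 (also called MRF4) acts both early and in mature fibers. In mouse and human, Myod1/MYOD1 is controlled by a core enhancer far upstream and by a distal regulatory region nearer to the gene, and in mouse the linked Myf5 and Myf6 genes share enhancers spread over a long upstream stretch. H3K27ac marks active promoters and enhancers.

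The stretches under MYOD summits are printed for the kept peaks away from the promoter and for the knockdown-only peaks that H3K27ac overlapped, to show the E-boxes where the calls of both antibodies are compared below. Each line is read on the strand of the gene it is named for, is named by the distance of its summit from the transcription start (negative is upstream), and has its E-boxes in capitals. The first 3 lines lie at chr11:17687996-17688116, chr11:17699682-17699802 and chr11:17714423-17714543, and the next pair at chr1:203051970-203052090 and chr1:203091882-203092002 (hg38, minus strand for both).
MYOD1 -31.5 kb: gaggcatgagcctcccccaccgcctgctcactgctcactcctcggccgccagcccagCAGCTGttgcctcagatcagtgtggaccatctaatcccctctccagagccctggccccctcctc
MYOD1 -19.8 kb: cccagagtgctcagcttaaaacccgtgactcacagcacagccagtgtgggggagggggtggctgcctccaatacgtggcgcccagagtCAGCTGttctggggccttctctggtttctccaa
MYOD1 -5.1 kb: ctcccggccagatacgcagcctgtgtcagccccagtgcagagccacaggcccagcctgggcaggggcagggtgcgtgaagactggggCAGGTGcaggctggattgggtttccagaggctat
MYOG +34.0 kb: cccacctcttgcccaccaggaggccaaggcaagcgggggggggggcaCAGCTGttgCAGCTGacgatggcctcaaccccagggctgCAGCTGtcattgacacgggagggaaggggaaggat
MYOG -5.9 kb: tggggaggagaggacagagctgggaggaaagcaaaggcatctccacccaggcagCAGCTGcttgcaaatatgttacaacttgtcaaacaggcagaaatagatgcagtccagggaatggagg

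The MYOG promoter is shown because both MYOD lists had a peak there. These are the 300 bases just before the transcription start (chr1:203086013-203086312, hg38, minus strand). The E-box near its right end is CAGTTG, and the MYOD summits lay farther left, 284 bp before the start in the knockdown list and 269 bp in the control list.
MYOG promoter: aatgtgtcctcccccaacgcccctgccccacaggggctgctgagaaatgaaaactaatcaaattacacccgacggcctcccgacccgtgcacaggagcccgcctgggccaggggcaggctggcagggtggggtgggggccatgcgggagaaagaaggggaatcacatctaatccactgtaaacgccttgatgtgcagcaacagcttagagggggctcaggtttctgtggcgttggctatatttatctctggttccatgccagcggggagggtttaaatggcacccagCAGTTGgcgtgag

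H3K27ac cover was larger in the knockdown list at each of the 3 loci, and MYOD cover was larger at MYOD1 and MYOG, as in most of the protein-coding windows with a peak of that antibody (78.4% and 54.6% at least 1.5 times higher). H3K27ac peaks covered 5.12 kb of the MYOG window in the knockdown list and 1.12 kb in the control list, a ratio of 4.58. At MYF5 and MYF6 they covered 3.08 kb in the knockdown list and 0.851 kb in the control list, a ratio of 3.62. At MYOD1 they covered 4.65 kb in the knockdown list and 2.32 kb in the control list, a ratio of 2.01. MYOG thus had the most covered sequence of the 3 loci in the knockdown list and MYOD1 the most in the control list, in windows of nearly the same length per gene (102.6 kb at MYOD1, 102.9 kb at MYOG and 102.8 kb at MYF5).

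**Figure D1:**
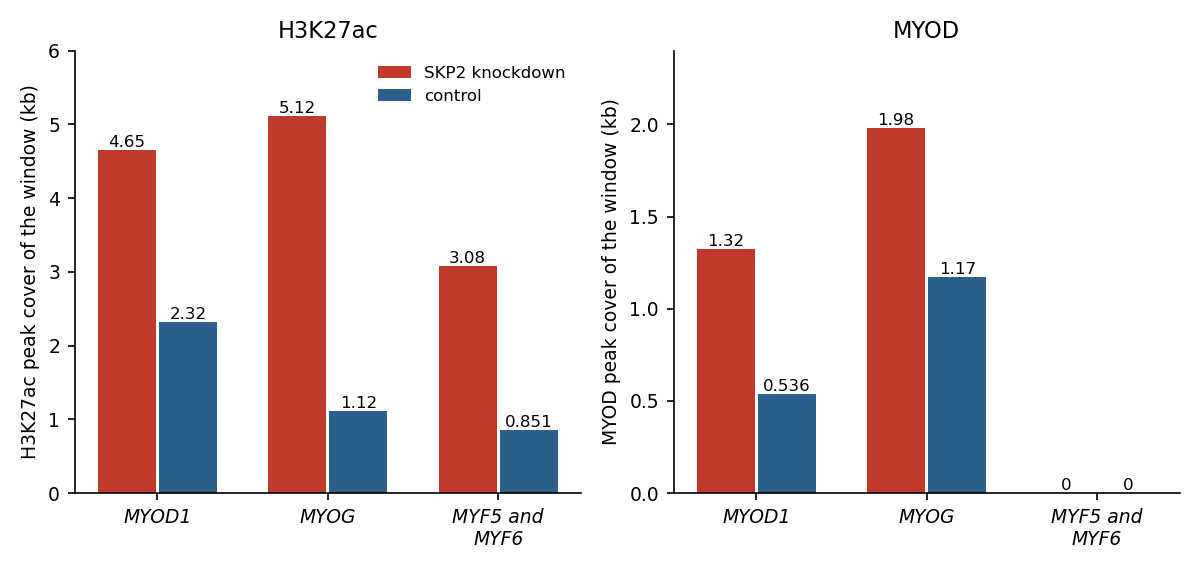
Peak cover of each window in kb, for H3K27ac (left) and MYOD (right), with SKP2 knockdown in red and control in blue; each bar is 1 library, so there is no error bar. H3K27ac cover was higher in the knockdown at all 3 loci, and MYF5 and MYF6 had 0 kb of MYOD cover in both lists.

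These ratios have to be read against the whole lists, because most genes had more cover in the knockdown. The H3K27ac list held 38457 peaks in the knockdown and 25356 in the control. All 4 members had at least 1.5 times more H3K27ac cover in the knockdown, as did 78.4% of the 16621 protein-coding windows with an H3K27ac peak, so the count of members is not a result about them. With the knockdown list shortened to the length of the control list by p (lists of equal length), that share was 60.6%. None of the members had at least 1.5 times less, against 0.878% of those windows (3.97% with lists of equal length). The median ratio over the windows with control cover was 1.93 (quartiles 1.52 and 2.63). MYOD1 stood at the 53.8th percentile of these ratios, in the middle, while MYF5 and MYF6 stood at the 88.4th and MYOG at the 93.6th. The 1490 windows (8.96%) with H3K27ac cover in the knockdown list alone have no ratio. They were left out of the median and of this ranking, so the percentiles would be lower with them.

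By the median ratio over windows with control cover, MYOD cover differed less between the lists than H3K27ac cover. The MYOD lists held 8457 peaks in the knockdown and 5814 in the control, and 9 of the first and 5 of the second fell at the members. MYOD peaks covered 1.32 kb at MYOD1 in the knockdown list and 0.536 kb in the control list, and 1.98 kb at MYOG in the knockdown list and 1.17 kb in the control list. Much of the cover at MYOG was nearer to other genes. The MYOD peaks nearest to the MYOG start covered 0.645 kb in the knockdown list and 0.307 kb in the control list. Both members with MYOD cover were at least 1.5 times higher in the knockdown, against 54.6% of the 11075 windows with a MYOD peak, and neither was that much lower, against 14.2%. With 10 kb on each side the ratio at MYOD1 was 1.15, under that threshold. The median MYOD ratio over windows with control cover was 1.18, beside 2.47 at MYOD1 and 1.69 at MYOG. It left out the 30.9% of windows with MYOD cover in the knockdown list alone, but kept those with control cover alone, so it lies low. For H3K27ac the share left out was 8.96%, so the medians of the antibodies are not fully comparable. With lists of equal length the MYOD median was 0.957, with 37.4% of windows higher and 26.4% lower, beside 2.47 at MYOD1 and 1.61 at MYOG. The direction of this one-sided median thus depended on list length, while more windows were higher than lower in both cases. The ratios at MYOD1 and MYOG kept their direction with lists of equal length, but that at MYOD1 depended on the flank, as given above. MYF5 and MYF6 had no MYOD peak in either list.

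**Figure D2:**
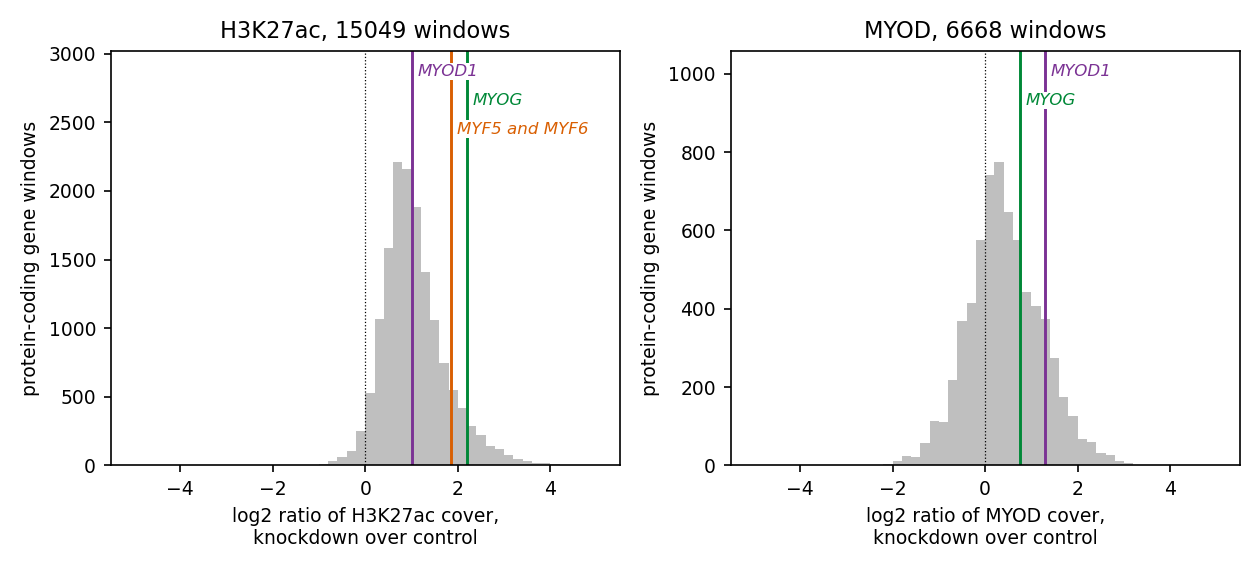
Distribution of the log2 ratio of peak cover, knockdown over control, over protein-coding windows with cover in both lists (15049 for H3K27ac, left, and 6668 for MYOD, right); lines mark the members and the dotted line marks equal cover. For H3K27ac the MYOD1 line is in the middle of the distribution and the MYOG and MYF5/MYF6 lines are in its upper part.

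Some properties of the lists bear on every value. The lowest background in a list, a stand-in for its depth, was 1.94 fragments in the knockdown MYOD list and 1.48 in the control MYOD list (1.31 times higher). For H3K27ac it was 1.61 in the knockdown list and 1.75 in the control list (0.920 times). Median peak width was 487 bp in the knockdown H3K27ac list and 363 bp in the control list, and 280 bp in the knockdown MYOD list and 271 bp in the control list. The sources used here do not say whether the spike-in entered peak calling, so cover and pileup are relative to each library. A missing peak means that a position did not reach the calling threshold, not that signal was absent.

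**Figure D3:**
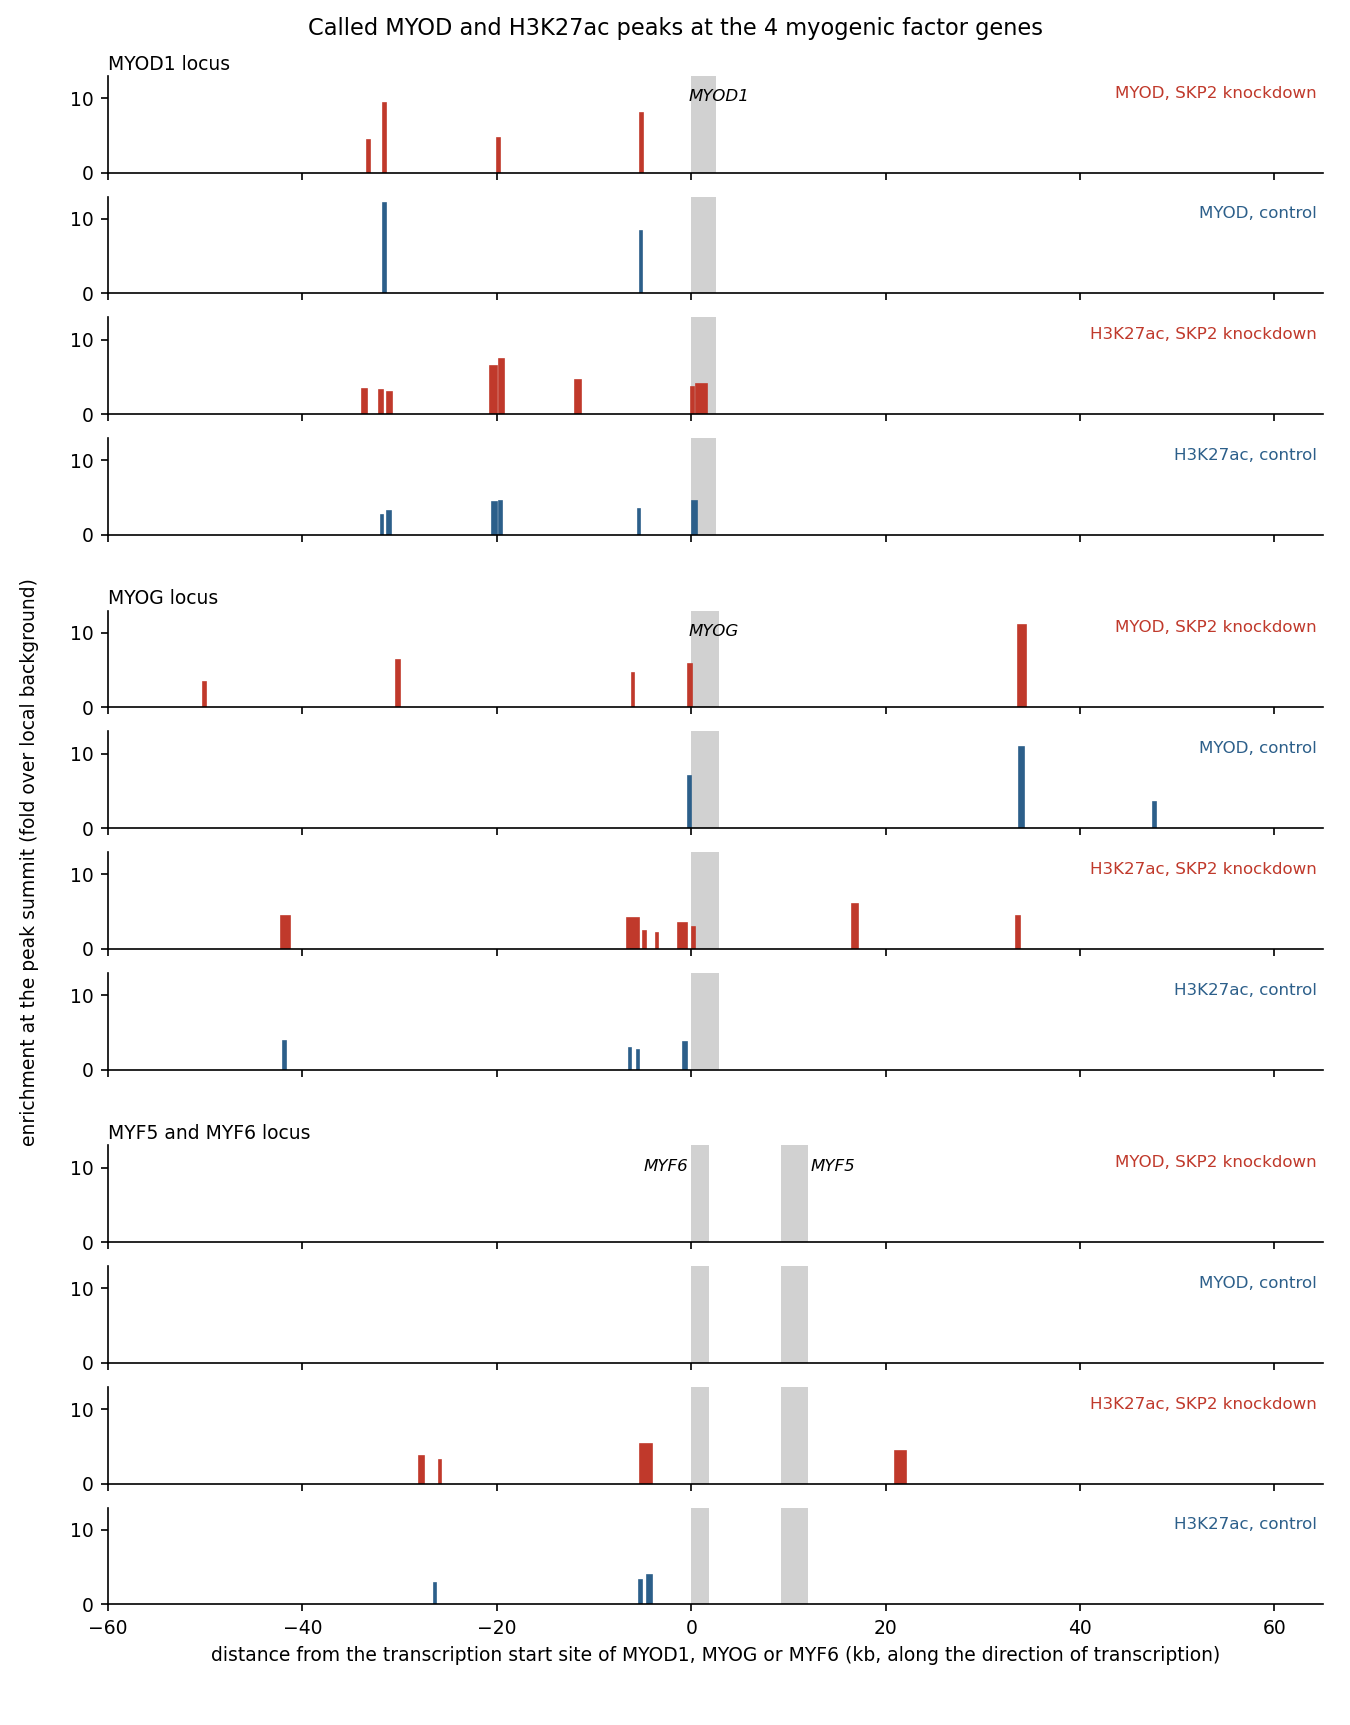
Called peaks at the 3 loci: the x axis is the distance in kb from the start of MYOD1, MYOG or MYF6 along the direction of transcription, bar width is peak width, bar height is fold enrichment at the summit over local background, and grey marks the gene bodies. Rows alternate SKP2 knockdown (red) and control (blue). MYOD peaks lie upstream of MYOD1, on both sides of the MYOG start, and nowhere around MYF6 and MYF5.

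MYOD1 (ENSG00000129152.4, chr11:17719571-17722136, hg38, plus strand, 3 exons) had all of its MYOD peaks upstream, in sequence that the annotation gives as intergenic. The strongest lay at -31.5 kb in both lists. Its fold over local background was 9.30 in the knockdown list and 12.2 in the control list, from summit pileups of 53 fragments (95% Poisson interval 39.7 to 69.3) in the knockdown and 70 (54.6 to 88.4) in the control. It ranked 680th of 8457 by p in the knockdown list and 181st of 5814 in the control list. Divided by the lowest background of its library, the pileup was 27.3 (20.5 to 35.8) in the knockdown and 47.3 (36.8 to 59.7) in the control, and these intervals did not overlap. The intervals before this division did overlap, so the reading at this peak depends on the scaling.

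The second MYOD peak in both lists, at -5.1 kb, had a fold of 7.94 in the knockdown list and 8.43 in the control list, with a pileup of 30 in each (20.2 to 42.8). Over the lowest background this was 15.5 in the knockdown and 20.3 in the control. The knockdown list alone added a peak at -33.2 kb, with a fold of 4.44 and a pileup of 23, and a peak at -19.8 kb, with a fold of 4.64 and a pileup of 16. Both added peaks were weaker than the kept ones. Scaled to the control depth, the pileup at -19.8 kb would be 12.2 fragments, and 9 would reach a -log10 p of 4 on the local background scaled the same way.

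H3K27ac at MYOD1 differed unevenly between the lists along the locus. The pair of H3K27ac peaks that straddle the -19.8 kb MYOD summit had folds of 6.44 and 7.43 in the knockdown list, at -20.1 and -19.6 kb, and of 4.42 and 4.48 in the control list, at -20.1 and -19.7 kb. Their pileups were 58 (44.04 to 74.98) and 66 (51.0 to 84.0) in the knockdown, and 30 (20.2 to 42.8) for each in the control, with no overlap of the intervals. Over the lowest background of each library, the ratios of knockdown over control were 2.10 and 2.39. They stood at the 79.2nd and 88.5th percentiles of all kept H3K27ac peaks, whose median ratio was 1.63. The H3K27ac peaks were therefore present in both lists at a position where the MYOD peak was called in the knockdown alone.

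At the MYOD1 start the H3K27ac peak heights were close. The strongest H3K27ac peak overlapping the control promoter peak had a fold of 4.05 in the knockdown list and 4.61 in the control list, from pileups of 24 (15.4 to 35.7) in the knockdown and 28 (18.6 to 40.5) in the control. The intervals overlapped, and no test of a difference was possible. The summits compared lay at +0.949 kb in the knockdown and +0.171 kb in the control. The other knockdown peak, at +0.127 kb, had a fold of 3.63 and a pileup of 23 (14.6 to 34.5). The peaks in the gene were 281 and 1068 bp wide in the knockdown list, with summits in the 5′ untranslated part of exon 1 and in intron 1, and 514 bp wide in the control list, with its summit in exon 1. The called acetylated stretch was thus longer in the knockdown, and its summit pileups were not higher than that of the control.

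The MYOD site at -5.1 kb was the only member site with less H3K27ac nearby in the knockdown. A control H3K27ac peak of 244 bp (chr11:17714089-17714332, fold 3.44, pileup 17, -log10 p 6.25) overlapped it, while the nearest knockdown H3K27ac peak was 5005 bp away. The pileup of this control peak scaled to the knockdown depth would be 15.6, and 13 would reach a -log10 p of 4 there on the scaled local background. That level is looser than the stated threshold of 5. Its interval before scaling was 9.90 to 27.2, and a role of depth or counting error was not tested. Conversely, peaks at -33.5 kb (fold 3.31, pileup 55) and at -11.8 kb (fold 4.62, pileup 19) were in the knockdown H3K27ac list alone.

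**Figure D4:**
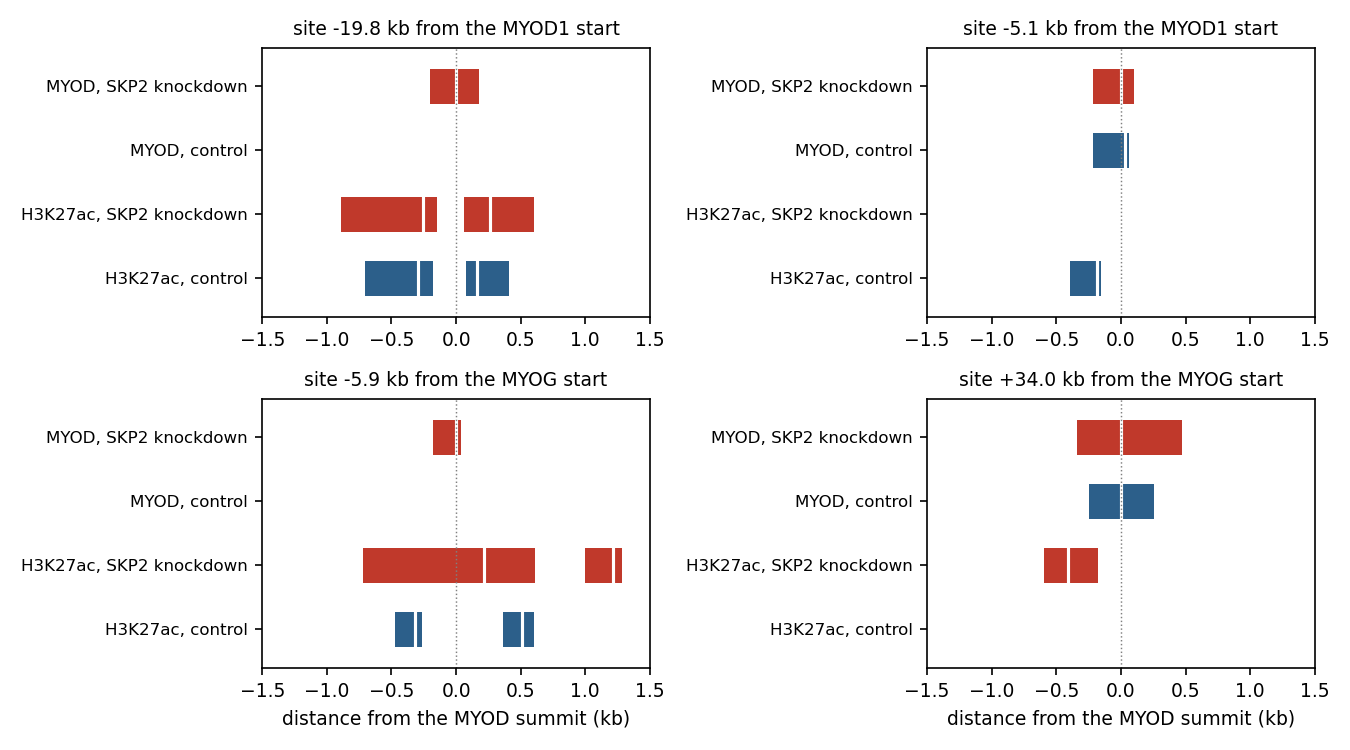
Extent of the called peaks within 1.5 kb of 4 MYOD summits, with distance from the MYOD summit in kb on the x axis, SKP2 knockdown rows in red above control rows in blue for each antibody, and white ticks at the summits. At the -19.8 kb MYOD1 site H3K27ac peaks flank the summit in both lists, at -5.1 kb the H3K27ac peak is in the control list alone, and at the MYOG sites the H3K27ac over the MYOD peak is in the knockdown list alone.

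MYOG (ENSG00000122180.5, chr1:203083129-203086012, hg38, minus strand, 3 exons) lies between PPFIA4 and ADORA1, whose starts or bodies fall in the same window. Its strongest MYOD peak lay at +34.0 kb, in intron 14 of PPFIA4. The fold was 11.1 in the knockdown list and 10.9 in the control list, from pileups of 79 (62.5 to 98.5) in the knockdown and 67 (51.9 to 85.1) in the control. The summit was at the same base in both libraries, in the stretch with 3 copies of CAGCTG printed above. Over the lowest background the pileup was 40.7 in the knockdown and 45.2 in the control.

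At this site H3K27ac was called in the knockdown alone, beside MYOD folds that were nearly equal. A knockdown H3K27ac peak of 421 bp (chr1:203052208-203052628, fold 4.36, pileup 25) overlapped the MYOD peak, and the nearest control H3K27ac peak was 34086 bp away. At the scaled depth and background, 27.2 fragments would be seen in the control, and 16 would reach a -log10 p of 4, looser than the stated 5. The pileup of 25 had an interval of 16.2 to 36.9 before scaling, and a role of depth or counting error was not tested.

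At the MYOG promoter, MYOD had a fold of 5.77 in the knockdown list and 6.99 in the control list. The pileups were 41 (29.4 to 55.6) in the knockdown and 49 (36.3 to 64.8) in the control, and over the lowest background 21.1 (15.2 to 28.7) in the knockdown and 33.1 (24.5 to 43.7) in the control. The intervals overlapped in both cases. The adjoining H3K27ac peak was 990 bp wide in the knockdown list and 434 bp wide in the control list, with a fold of 3.52 in the knockdown and 3.74 in the control. Its pileup went the other way, at 64 (49.3 to 81.7) in the knockdown and 46 (33.7 to 61.4) in the control, or 39.7 and 26.3 over the lowest background of the knockdown and the control library, and the pileup intervals overlapped. A further H3K27ac peak over exon 1 (+0.22 kb, fold 2.87, pileup 42) was in the knockdown list alone.

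The upstream stretch around -5.9 kb, inside the ADORA1 gene body as annotated, showed the widest H3K27ac peak at any member. It spanned 1334 bp in the knockdown list with a pileup of 82 (65.2 to 102), against 32 (21.9 to 45.2) and 29 (19.4 to 41.6) in the separate control peaks of 239 and 203 bp. The knockdown interval did not overlap those of the control. Over the lowest background of each library, the ratios of knockdown over control were 2.78 and 3.07. They stood at the 94.6th and 96.9th percentiles of all kept H3K27ac peaks, whose median ratio was 1.63. Fold differed less, at 4.17 in the knockdown and 2.68 and 2.83 in the control, since the local background at this summit was 18.9 in the knockdown and 11.3 and 9.59 at the control summits. The MYOD peak within it (fold 4.60, pileup 28) was in the knockdown list alone, and it was the only member site whose MYOD summit fell inside an H3K27ac peak.

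The other MYOG-window sites were each in a single list. MYOD peaks at -30.2 kb (fold 6.40, pileup 34) and at -49.9 kb (fold 3.43, pileup 14) were called in the knockdown, both inside ADORA1, and a peak at +47.8 kb in PPFIA4 intron 1 (fold 3.52, pileup 13) was called in the control. None of these had H3K27ac within 2 kb in either list. H3K27ac peaks at +16.6 kb (fold 5.97, pileup 43), -3.5 kb (fold 2.13) and -4.7 kb (fold 2.42) were called in the knockdown alone. The peak at -42.0 kb, 950 bp in the knockdown list and 240 bp in the control list, lay at the ADORA1 start and so is closer to that gene than to MYOG. With only the peaks whose nearest protein-coding start is that of MYOG, cover was 3.75 kb in the knockdown list and 0.876 kb in the control list, a ratio of 4.28.

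MYF6 (ENSG00000111046.4, chr12:80707634-80709474) and MYF5 (ENSG00000111049.4, chr12:80716912-80719671), both on the plus strand of hg38 with 3 exons, had no MYOD peak within 50 kb in either list. The nearest MYOD peak to the MYF5 start was 1289 kb away in the knockdown list and 152 kb away in the control list, and to the MYF6 start 1280 kb away in the knockdown list and 142 kb away in the control list. No H3K27ac peak had its summit within 1 kb of either start in either list. The acetylation called at this locus lay upstream of MYF6 and downstream of MYF5, not at their starts.

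The strongest H3K27ac at the locus lay upstream of MYF6, in intergenic sequence. A single peak of 1166 bp with its summit at -4.3 kb from MYF6 was called in the knockdown list (fold 5.31, pileup 41, interval 29.4 to 55.6). The control list had a peak of 239 bp at -5.2 kb (fold 3.30, pileup 17, interval 9.90 to 27.2) and a peak of 430 bp at -4.3 kb (fold 3.88, pileup 20, interval 12.2 to 30.9) in its place. The knockdown pileup interval overlapped that of the nearer control peak and not that of the farther. Over the lowest background the values at the nearer peak were 25.5 (18.3 to 34.5) in the knockdown and 11.4 (6.98 to 17.6) in the control, without overlap, so the reading at that peak depends on the scaling. Their ratio of 2.23 stood at the 83.8th percentile of all kept H3K27ac peaks.

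Downstream of MYF5, a peak of 1157 bp at +12.8 kb (fold 4.44, pileup 28) was in the knockdown list alone. Farther upstream, peaks at -27.7 kb, in the last exon of PTPRQ (fold 3.74), and at -25.8 kb (fold 3.19) were in the knockdown list, and a weak peak at -26.4 kb (fold 2.86, -log10 p 4.93) was in the control list. The 3 peaks did not overlap. All control H3K27ac peaks at this locus were under a -log10 p of 10, while 3 of the 4 knockdown peaks were above it.

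Taking the peaks of both lists together, the members had 10 MYOD sites, of which 4 were kept, 5 were in the knockdown list alone and 1 was in the control list alone. Of all 10538 MYOD sites, 35.3% were kept, 44.9% were in the knockdown list alone and 19.8% in the control list alone, so the members' counts were near those of the whole lists. By peaks, 5 of the 9 knockdown peaks and 1 of the 5 control peaks at the members were in a single list, against 55.9% and 35.9% of the whole knockdown and control lists. All 4 kept peaks were wider in the knockdown, against 61.3%. Raw pileup was lower in the knockdown at MYOD1 -31.5 kb and the MYOG promoter, equal at MYOD1 -5.1 kb and higher at MYOG +34.0 kb. Fold was lower in the knockdown at 3 of the 4 kept sites, against 43.4% of the 3728 kept control MYOD peaks over all chromosomes. Pileup over the lowest background was lower at 4 of 4, against 66.1%. The ratio of these relative pileups, knockdown over control, was 0.578 at MYOD1 -31.5 kb (7.64th percentile of all kept peaks), 0.764 at MYOD1 -5.1 kb, 0.639 at the MYOG promoter (13.7th percentile) and 0.901 at MYOG +34.0 kb, and its median over all kept peaks was 0.891. The MYOG +34.0 kb site was thus near the median and the other sites were below it, and 4 sites are few.

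The kept H3K27ac peaks went the other way. Among the 11 control H3K27ac peaks that a knockdown peak overlapped, fold was higher in the knockdown at 8, against 78.0% of the 21910 kept peaks over all chromosomes, and relative pileup was higher at 10, against 91.9%. Both shares were close to those of the whole list. The ratio of relative pileups ranged from 0.931 at the MYOD1 start to 3.07 at the MYOG -6.3 kb peak, with a median of 1.63 over all kept peaks. All 11 were wider in the knockdown, against 86.1% of kept peaks. Of the member peaks, 10 of 20 in the knockdown list had no overlap in the control list, against 48.6% of that whole list, and 2 of 13 in the control list had none in the knockdown list, against 13.6%. These counts too were near those of the whole lists.

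**Figure D5:**
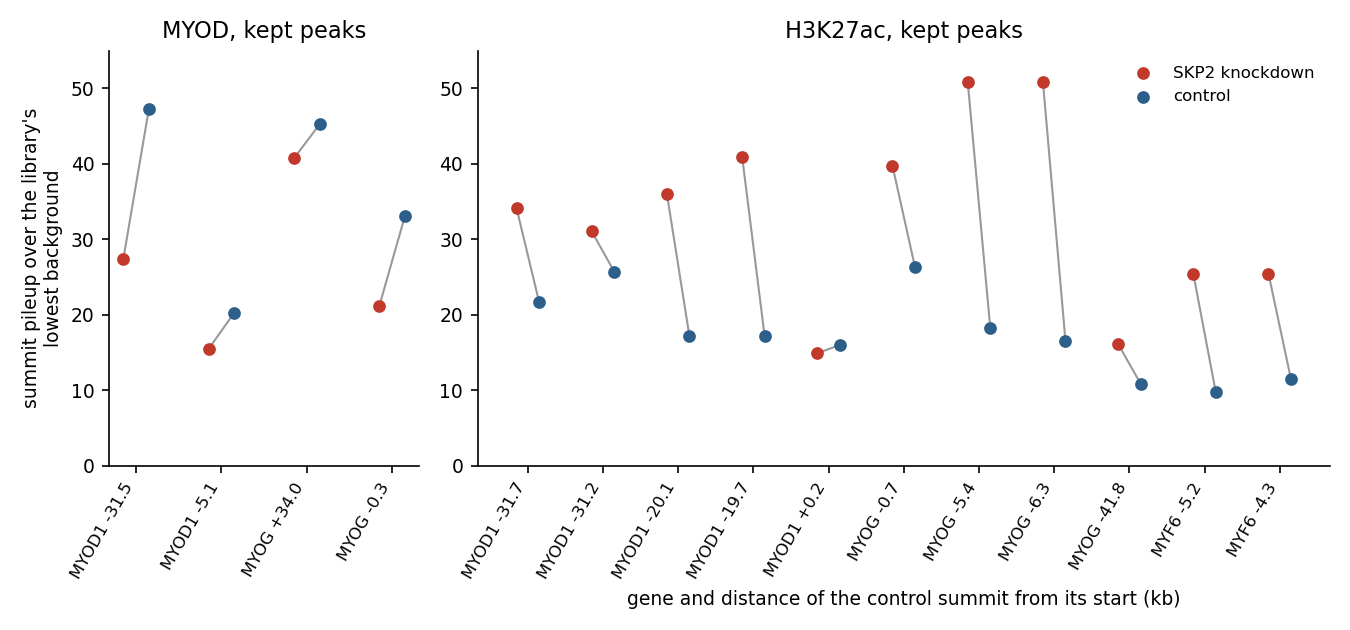
Summit pileup divided by the lowest background of the library, for the member peaks that both lists held (MYOD left, H3K27ac right), with SKP2 knockdown in red at the left and control in blue at the right of each pair; labels give the gene and the distance of the control summit from its start in kb. All 4 MYOD pairs are lower in the knockdown, and 10 of the 11 H3K27ac pairs are higher; the same knockdown peak stands in both pairs at MYOG -5.4 and -6.3 kb and in both MYF6 pairs.

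H3K27ac overlapped 4 of the 10 member MYOD sites in the knockdown list and 3 in the control list, beside 51.7% in the knockdown and 34.0% in the control of the 10538 MYOD sites over all chromosomes. Within 2 kb of the summit, H3K27ac cover was larger in the knockdown at 6 of the 10 sites, against 62.6% of all sites, and smaller at 1, against 7.90%. The members did not stand apart from the other MYOD sites in these shares. The highest cover within 2 kb in the knockdown was at MYOG -5.9 kb, with 1.62 kb in the knockdown and 0.442 kb in the control, followed by MYOD1 -19.8 kb, with 1.29 kb in the knockdown and 0.858 kb in the control.

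E-boxes lay under nearly all of the member sites. Windows of 121 bp around the summits held CANNTG at 9 of 10 sites, beside 88.5% of all knockdown and 89.9% of all control MYOD summits, and beside 47.6% of windows 2 kb away from knockdown summits and 48.4% of those 2 kb away from control summits. Among the forms of CANNTG, the palindrome CAGCTG was at 4 sites (MYOD1 -31.5 and -19.8 kb, MYOG +34.0 and -5.9 kb) and CAGGTG, read on either strand, at 3 (MYOD1 -33.2 and -5.1 kb, MYOG -30.2 kb). Either of these boxes was thus at 7 of 10 sites, beside 80.6% of all knockdown and 81.0% of all control summits, and 18.0% of the windows 2 kb away from knockdown summits and 18.4% of those from control summits. The MYOG promoter summit had CAGATG, the control-only site at +47.8 kb had CAAATG, and the -49.9 kb site had no E-box in its window. Both weakest MYOG peaks, at +47.8 and -49.9 kb, were among the 3 sites with neither CAGCTG nor CAGGTG, together with the promoter.

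In the 250 bases before the start in RefSeq's promoter table (hg38), MYOG and MYF5 had 1 CANNTG each and MYF6 had 0, while 61.8% of the 35116 promoters in the table held at least 1. None of these 3 promoters held CAGCTG or CAGGTG, beside 28.7% of all promoters that held either. A match is a description of letters and not of binding.

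Genes of the same pathway were counted in windows built the same way. The counts stand beside 78.4% higher and 0.878% lower of all windows with an H3K27ac peak. All 3 E protein partner genes had at least 1.5 times more H3K27ac cover in the knockdown. TCF12 had 4.61 kb in the knockdown and 1.38 kb in the control, TCF4 had 13.1 kb in the knockdown and 4.90 kb in the control, and TCF3 had 7.07 kb in the knockdown and 3.50 kb in the control. Among the MEF2 factors and coactivators, which act with the MYOD family on muscle genes, 6 of 7 were higher and 1 was lower. MEF2C had 3.62 kb in the knockdown and 1.10 kb in the control, and the acetyltransferase gene KAT2B, the lower one, had 0.358 kb in the knockdown and 0.704 kb in the control.

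Upstream regulators of the family were higher at 7 of 9, with 0 lower, beside 78.4% and 0.878% of all windows. SIX4, a homeobox gene of the muscle lineage, had 5.33 kb in the knockdown and 1.64 kb in the control, while PAX7, the satellite cell factor, had 1.496 kb in the knockdown and 1.71 kb in the control. Antagonists were higher at 5 of the 8 with any H3K27ac, with 0 lower, beside the same shares. HES1, a Notch target and repressor, had 0.925 kb in the knockdown and 0.248 kb in the control. ID1, which sequesters E proteins, had 4.79 kb in the knockdown and 3.73 kb in the control, and SNAI1, a repressor that competes for E-boxes, had 1.27 kb in the knockdown and 1.5 kb in the control. The median ratios of these 4 lists were 2.68 for E proteins, 1.93 for MEF2 factors and coactivators, 1.82 for upstream regulators and 1.66 for antagonists, beside 1.93 over all windows.

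Of 22 muscle target genes, all had H3K27ac in at least 1 list, and 17 were higher and 0 lower, with a median ratio of 1.77, beside the 78.4% and 0.878% of all windows given above. CDKN1A, the cell cycle inhibitor, had 3.34 kb in the knockdown and 0.389 kb in the control, and ACTA1, skeletal actin, had 1.57 kb in the knockdown and 0.187 kb in the control. At the other end TNNT3, a troponin gene, had 2.02 kb in the knockdown and 1.78 kb in the control. MYOD cover was present at 20 of the 22, beside 11075 of all 20033 windows. Of the 20, 7 were at least 1.5 times higher and 2 lower, beside 54.6% and 14.2% of all windows with MYOD. Neighboring genes of this list, such as CHRND and CHRNG, share peaks in their windows. As a check of the muscle label of the cells, 6 of 18 genes that regulate or mark other lineages had any H3K27ac in their windows, and 12 had none. Among all 20033 protein-coding windows, 16621 had an H3K27ac peak. Of those 6 genes, 4 were higher and 1 was lower in the knockdown, and their windows can hold peaks of neighboring genes.

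The genes whose cover over the 4 libraries was most like that of each member were found by Euclidean distance of log2 values (pseudocount 0.1 kb). For MYOD1 the nearest was ZNF511-PRAP1 (distance 0.139), then THBS2 (0.172), for MYOG PC (0.220), then SEC16A (0.267), and for MYF5 and MYF6 alike INO80 (0.0112), then RUVBL1 (0.0175). The likeness is one of covered length over 4 values and carries nothing on shared function or control.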

How the data were processed

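MYOD and H3K27ac ChIP-seq peak lists of RD cells were used, 1 library for each of shSKP2 and shSCR per antibody, grouped by sample title. MACS3, deepTools and BWA 0.7.17 are named in the submitters' processing notes, beside the human build GRCh38 (hg38) and dm3. The methods describe per-library MACS3 calls against input and removal of excluded regions. The deposited fold is a ratio of summit pileup to local background. The authors also deposited a -log10 p and a -log10 q per summit and a score, about 10 times the -log10 p. The stated p threshold corresponds to a -log10 p of 5, but 2.41 to 4.13% of each list lay under it, down to just above 4, and all deposited peaks were used. Total reads are not given in the sources used here.

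Pileup x and background were recovered from fold, as (x + 1) over (background + 1), and the Poisson p, with whole x for 100% of peaks (tolerance 0.001). The lowest background served as a depth proxy, which also scales with fragment length. Each H3K27ac list had 1 peak outside chromosomes 1 to 22, X and Y, which was not used. Windows were GENCODE release 44 gene bodies with 50 kb on each side, cover was the union of peaks clipped to the window, a kept peak overlapped the other list by at least 1 bp, and a kept pair was a control peak with the overlapping knockdown peak of highest -log10 p. Called meant at least 1.5 times more or less cover. E-boxes were searched on both strands, with CACCTG read as CAGGTG, in 121 bp of hg38 around the summit. Named pathway genes were among the highest and lowest H3K27ac ratios of each list with control cover. The members and lists were chosen with earlier results of these data known. Python 3.11.15, numpy 2.4.6, scipy 1.17.1, matplotlib 3.10.9 and samtools 1.23.1 were used, and the recovery and overlap code was tested on simulated data. Alternatives were stricter p, lists of equal length, other flanks, nearest-gene assignment and other overlap rules. The kept-pair, scaled-pileup and motif comparisons and the background under each alternative were added after seeing the data.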

Additional observations from a re-analysis of the deposited data

How the results depend on the processing

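With 1 library per group no replicate could be left out, and no paired analysis was possible because the groups hold 1 sample each. Over the alternatives, the H3K27ac cover ratio of knockdown over control ranged from 1.52 to 2.01 at MYOD1, from 3.55 to 9.99 at MYOG and from 3.08 to 4.60 at MYF5 and MYF6, and none changed direction. The value of 9.99 at MYOG came with only the peaks whose -log10 p was 10 or more. At that threshold no ratio could be given at MYF5 and MYF6, where cover was 2.84 kb in the knockdown list and 0 kb in the control list. The share of all windows at least 1.5 times higher in the knockdown, compared after seeing the data, ranged from 60.6 to 82.6% for H3K27ac and from 37.4 to 55.2% for MYOD. For MYOD, lists of equal length gave a median ratio of 0.957 over windows with control cover, and the other settings gave 1.08 to 1.31. With 10 kb on each side, MYOD peaks at the members numbered 3 in the knockdown list and 2 in the control list, and MYOD cover at MYOD1 had a ratio of 1.15. With only the peaks nearest to a member's start, the control list held 3. Kept MYOD peaks numbered 4 under every overlap rule tried. MYOD sites overlapped by H3K27ac numbered 1 in the knockdown and 0 in the control when the MYOD summit had to lie in the H3K27ac peak, 6 in the knockdown and 5 in the control within 1 kb, and 4 in the knockdown and 1 in the control with the H3K27ac peaks of that threshold.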
